A study of Homo sapiens with 18 samples.

Results

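The genes described here are 10 cell-surface ligands through which immune cells read and clear senescent cells: CD274, PDCD1LG2, CD276, CD47, MICA, MICB, ULBP1, ULBP2, ULBP3 and PVR. They were matched by symbol and are 10 of the 57500 genes in the count table, and all 10 were among the 16994 genes that passed the filter on low counts. The lowest count of any of them in any library was 47. RNA-seq was available for 18 libraries of IMR90 human lung fibroblasts, with 3 libraries in each of 6 groups. Proliferating cells (Prol) and cells made senescent by 20 Gy of X-rays (Sen (IR)) were the intact groups. In the 4 other groups, irradiated cells overexpressing Parkin had been exposed to CCCP, a mitochondrial uncoupler that lets Parkin mark mitochondria for removal, for 48 h from day 1 after irradiation. These cells received nothing further (Sen (IR) + CCCP), sodium acetate at 20 mM from day 3 (Sen (IR) + CCCP + acetate), transfected mtDNA on day 10 (Sen (IR) + CCCP + mtDNA), or both. The methods give day 12 for collection. The Parkin transgene is named by the methods and by none of the labels. A legend in the study's supplement marks the irradiated cells as Parkin-overexpressing both with and without CCCP, and for Prol the transgene is not stated. A transfection without mtDNA was not analysed here, so mtDNA and its transfection reagent cannot be told apart. Likewise, no group had CCCP without mitochondrial removal or removal without CCCP, so these cannot be told apart either.

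As background, the products of CD274 (PD-L1) and PDCD1LG2 (PD-L2) bind the receptor PD-1 on T cells and restrain them, and CD276 (B7-H3) belongs to the same B7 family. CD47 binds SIRPA on macrophages and blocks phagocytosis. MICA, MICB and the ULBP proteins are ligands of NKG2D, the activating receptor of natural killer (NK) cells and cytotoxic T cells, and are induced by DNA damage and cell stress. PVR (CD155) binds the activating receptor CD226 and the inhibitory receptors TIGIT and CD96. Senescent fibroblasts are a known target of NK cells, T cells and macrophages. RNA was measured here, and protein at the cell surface was not analysed.

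The libraries held 24624886 to 46224280 counts on genes, and gene positions are those of GENCODE 44 on GRCh38. The 13 protein-coding mtDNA genes took 2.31% to 2.89% of the counts in Prol, 1.75% to 2.64% in Sen (IR) and 0.0461% to 0.237% in the 4 groups given CCCP. All 9 fibroblast markers examined were present, with a summed level of 3783 to 17800.1 TPM (transcripts relative to the library total, a scale corrected for gene length), and 7 of 9 leukocyte markers stayed under 1 TPM in every library. No pair of replicates differed by less than sampling noise. Replicate 3 of Sen (IR) and replicate 2 of Sen (IR) + CCCP + acetate + mtDNA stood apart from the other libraries of their groups, and the values of CD274, IRF1, CD276, MICA and PVR that rest on them are also given without them. Levels of one gene across libraries are given in CPM (counts scaled to library size, with sizes adjusted by TMM), as mean ± SD with n = 3, and differences as log2 fold changes ± SE with Benjamini-Hochberg adjusted p-values from edgeR's quasi-likelihood test over all 16994 genes, called at 0.05. The 2 other scalings were library sizes that follow the deposited TPM and total counts without TMM factors. In bulk libraries, fewer cells expressing a gene and less RNA per cell cannot be told apart.

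The start of CD274 carried sequence matches to response elements of the interferon pathway, and the starts of MICA and MICB a match to the heat shock element. The RefSeq promoter sequences (GRCh38.p14) held 9 of the 10 ligands, with 10 entries, and PDCD1LG2 was not among them. In the 250 bases before each start, 5 motifs were searched on both strands. The core of the interferon-stimulated response element, in which GAAA recurs after 2 bases of any kind, was present in 3.02% of all 35116 promoters, and among the ligands in CD274 only, where 2 matches overlapped each other. The interferon-gamma activated GAS motif, TTCNNNGAA, was present in 6.57% of promoters and, among the ligands, also in CD274 only. The heat shock element core, GAANNTTC, was present in 5.78% of promoters and, among the ligands, in MICA and MICB. The AP-1 motif TGANTCA (6.57% of promoters) matched none of the 10 entries, and the loose NF-κB frame, GGG and CC with 5 bases of any kind between them (54.4% of promoters) matched all 10. A match is a description of the letters in this window and not evidence of binding.

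The stretch of the CD274 promoter upstream of its annotated transcripts, chr9:5450292-5450502 on the plus strand, is shown because CD274 varied most between the groups of the 10 ligands. The capitals mark the overlapping pair of interferon-stimulated response element matches, which lie on the opposite strand and lie 208 to 193 bases before the RefSeq start, and then the GAS match, 125 to 117 bases before it.
CD274: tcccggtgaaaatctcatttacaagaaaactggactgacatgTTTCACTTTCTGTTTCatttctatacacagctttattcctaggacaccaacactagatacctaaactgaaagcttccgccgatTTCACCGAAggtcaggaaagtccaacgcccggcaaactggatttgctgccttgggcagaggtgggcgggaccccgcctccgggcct

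The matching stretches of MICA, chr6:31403449-31403478, and MICB, chr6:31497995-31498024, both on the plus strand, are shown because these neighbouring paralogs share the heat shock element, in capitals. It lies 135 to 128 bases before the RefSeq start of MICA and 139 to 132 bases before that of MICB. Unlike the CD274 stretch, both stretches lie within the GENCODE spans of their genes, which begin further upstream than the RefSeq starts. Over the 250 bases, the 2 promoters were identical at 210 of 254 aligned columns (82.7%), gaps included.
MICA: ccagcccactgGAATTTTCtcttccaagcg
MICB: ccaggccgctaGAATTTTCtcttctgaacg

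Compared per length in TPM, CD47 and PVR were among the 3 most abundant of the ligands in all 6 groups, and ULBP3 was the least abundant in all 6. In Prol, CD47 stood at 265 ± 5.60 TPM, PVR at 161 ± 9.64 TPM and ULBP3 at 14.4 ± 0.330 TPM. The order between them changed with the treatment. CD274 ranked 4th of 10 in Prol (77.1 ± 2.98 TPM), 9th in Sen (IR) (32.8 ± 2.02 TPM), 8th in Sen (IR) + CCCP (50.6 ± 1.51 TPM), 3rd with acetate, 4th with mtDNA and 1st with both (253 ± 97.2 TPM). In the last group the libraries of CD274 and CD47 (209 ± 12.8 TPM) overlapped, so their order is not resolved. PVR led in Sen (IR) at 410.2 ± 46.7 TPM, and its libraries lay above those of CD47 there. MICA and PDCD1LG2 overlapped in Sen (IR), as did MICB, CD274 and CD276 as neighbours in Sen (IR) + CCCP.

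CD274, which encodes PD-L1 (ENSG00000120217, chr9:5450503-5470566, plus strand), was lower in senescent than in proliferating fibroblasts and higher when acetate, mtDNA or both were given after mitochondrial removal. Its libraries held 82.3, 85.9 and 84.0 CPM in Prol. They held 34.2, 36.2 and 31.3 CPM in Sen (IR) and 39.3, 39.5 and 37.5 CPM in Sen (IR) + CCCP. All libraries of these latter groups lay below all those of Prol. With acetate the libraries reached 105, 108 and 101 CPM, and with mtDNA 113, 84.1 and 109.9 CPM. With both, they reached 162, 313 and 166 CPM, where replicate 2 was the highest of all 18 libraries and replicates 1 and 3 still lay above every library of the other groups.

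CD274 fell 2.48-fold from Prol to Sen (IR), a log2 fold change of -1.31 ± 0.17 (SE, adjusted p = 9e-07). The change from Sen (IR) to Sen (IR) + CCCP was 0.20 ± 0.17 (adjusted p = 0.331), with a 95% interval of -0.16 to 0.55, and did not pass the threshold, though it did with no filter on low counts (log2 0.22, adjusted p = 0.00276), with only the groups compared (log2 0.18, adjusted p = 0.0197) and under both other scalings of the libraries. Against the same Sen (IR) + CCCP libraries, CD274 rose 2.70-fold with acetate (log2 1.43 ± 0.17, adjusted p = 1.83e-07), 2.64-fold with mtDNA (log2 1.40 ± 0.17, adjusted p = 2.35e-06) and 5.49-fold with both (log2 2.46 ± 0.17, adjusted p = 4.29e-11). The combination was also above each single treatment, by 1.03 ± 0.16 (adjusted p = 0.000156) over acetate and by 1.06 ± 0.16 (adjusted p = 6.96e-06) over mtDNA. Without replicate 2 of the combination these differences were 0.65 (adjusted p = 2.17e-06) and 0.69 (adjusted p = 3.72e-08), and that from Sen (IR) + CCCP was 2.09 (adjusted p = 7.07e-17). The interaction, the mtDNA response of acetate-treated cells less the mtDNA response without acetate, was -0.37 ± 0.23 (adjusted p = 0.57), so the response to both was not called different from the sum of the single responses on the log2 scale. Without replicate 2 of the combination it was -0.75 (adjusted p = 6.91e-05), a call of a response smaller than that sum, so whether the interaction is called depends on this library.

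PDCD1LG2, which encodes PD-L2 (ENSG00000197646, chr9:5510531-5571282, plus strand), lies 39964 bases downstream of CD274 on the same strand and changed much less. Its libraries held 97.2, 100.1 and 96.2 CPM in Prol, 80.5, 81.3 and 72.5 CPM in Sen (IR) and 62.4, 63.4 and 61.4 CPM in Sen (IR) + CCCP. Each of these groups lay below the one before. With acetate it held 51.4, 52.9 and 49.8 CPM, with mtDNA 73.1, 65.5 and 73.3 CPM, and with both 56.6, 65.9 and 59.6 CPM. It fell by 0.32 on the log2 scale from Prol to Sen (IR) (adjusted p = 5.03e-05) and by 0.28 with acetate (adjusted p = 0.000272), the opposite sign to CD274. It rose by 0.18 ± 0.06 (adjusted p = 0.0363) with mtDNA and by 0.24 ± 0.06 (adjusted p = 0.00945) with mtDNA on top of acetate. The first of these calls was lost without any 1 of 5 of the 6 libraries compared, and the second was lost without replicate 2 of the combination (log2 0.18, adjusted p = 0.0555). The ratio of CD274 to PDCD1LG2 in TPM ran from 0.244 to 0.257 in Sen (IR), from 0.351 to 0.362 in Sen (IR) + CCCP, from 1.16 to 1.18 with acetate and from 1.60 to 2.74 with both. PD-L2 transcripts thus outnumbered those of PD-L1 in the 4 groups without acetate, and the order was reversed in the 2 groups given it.

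CD276, the B7-H3 gene (ENSG00000103855, chr15:73683966-73714514, plus strand), was lower in CPM in all 4 groups given CCCP than in the intact groups. Against Prol this depended on the scaling, since Sen (IR) + CCCP over Prol was -0.60 ± 0.08 (adjusted p = 5.66e-07) under TMM and -0.09 (adjusted p = 0.285) with library sizes that follow TPM. Its libraries held 76.5, 86.0 and 73.7 CPM in Prol, 108, 107 and 82.4 CPM in Sen (IR) and 53.8, 50.6 and 51.6 CPM in Sen (IR) + CCCP. Replicate 3 of Sen (IR) lay within the range of Prol. The rise from Prol to Sen (IR) was 0.33 ± 0.08 (adjusted p = 0.000873), and the log2 fold change with CCCP was -0.93 ± 0.08 (adjusted p = 6.3e-10). Without replicate 3 of Sen (IR) these were 0.44 (adjusted p = 1.38e-06) and -1.04 (adjusted p = 1.86e-12). With acetate, mtDNA and both, the libraries spanned 55.5 to 63.7 CPM. CD276 rose with mtDNA by 0.23 ± 0.08 (adjusted p = 0.0435), a call lost without any 1 of the 6 libraries, and with both by 0.24 ± 0.08 (adjusted p = 0.0117). The difference with acetate alone, 0.17 ± 0.08 (adjusted p = 0.0701), did not pass. It did with no filter on low counts (adjusted p = 0.0319), a replicate block (adjusted p = 0.0458) and only the groups compared (adjusted p = 0.00524). It also did without replicate 1 of Sen (IR) + CCCP (adjusted p = 0.0491) or replicate 2 of the acetate group (adjusted p = 0.0325). Under both other scalings it did not pass (adjusted p = 0.455 and 0.595).

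CD47 (ENSG00000196776, chr3:108043091-108091862, minus strand), the do-not-eat-me signal, did not differ detectably between Prol and Sen (IR) and was lower in the groups given CCCP. It held 574, 537 and 557 CPM in Prol, 582, 591 and 489.9 CPM in Sen (IR) and 329.7, 333 and 347 CPM in Sen (IR) + CCCP. The log2 fold change from Prol to Sen (IR) was -0.01 ± 0.07 (adjusted p = 0.956), with a 95% interval of -0.14 to 0.13. With CCCP it fell 1.65-fold (log2 -0.72 ± 0.07, adjusted p = 2.91e-09). The libraries with acetate (325, 307 and 317 CPM), mtDNA (380.4, 335 and 361 CPM) and both (326, 369 and 321 CPM) stayed below every library of the intact groups. None of these treatments moved it past the threshold from Sen (IR) + CCCP, with log2 fold changes of -0.09 ± 0.07 (adjusted p = 0.256), 0.09 ± 0.07 (adjusted p = 0.389) and 0.01 ± 0.07 (adjusted p = 0.923). With acetate it was called lower under both other scalings and with only the groups compared (log2 -0.10, adjusted p = 0.0122).

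**Figure D1:**
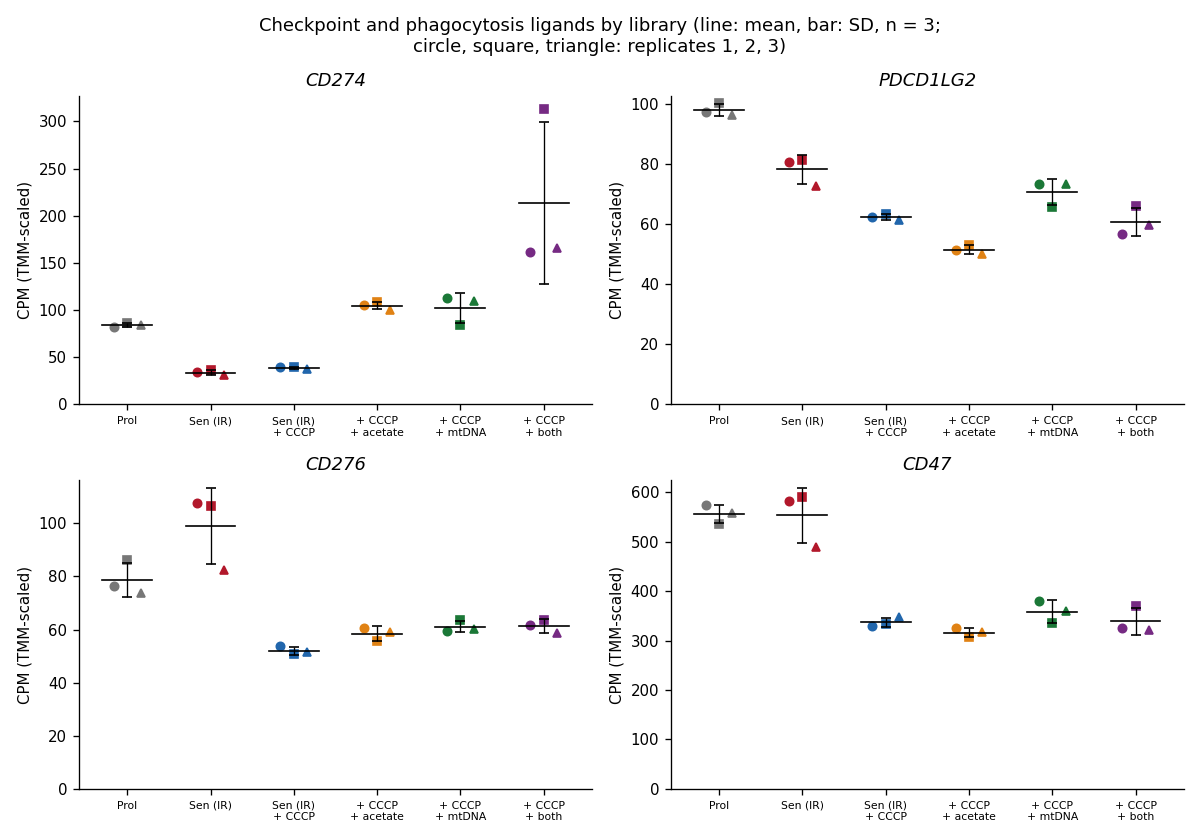
CD274, PDCD1LG2, CD276 and CD47 in CPM (TMM-scaled, vertical axis from 0) in the 6 groups, 1 symbol per library, with the mean as a line and the SD as a bar (n = 3). CD274 is lowest in Sen (IR) and highest with acetate and mtDNA together, where replicate 2 stands far above the others, while CD47 and CD276 are lower on this scale in all 4 groups given CCCP.

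Of the NKG2D ligands, MICA (ENSG00000204520, chr6:31399784-31415315, plus strand) had the largest fall with CCCP. Its libraries held 35.7, 32.2 and 30.3 CPM in Prol and 90.2, 89.5 and 73.3 CPM in Sen (IR), and 38.9, 42.4 and 41.0 CPM in Sen (IR) + CCCP. Sen (IR) lay far above both, its lowest library being replicate 3. MICA rose 2.58-fold with irradiation (log2 1.37 ± 0.08, adjusted p = 5.88e-12) and fell 2.07-fold with CCCP (log2 -1.05 ± 0.08, adjusted p = 1.51e-10), and Sen (IR) + CCCP remained above Prol by 0.32 ± 0.08 (adjusted p = 0.00181). Without replicate 3 of Sen (IR) the rise was 1.46 (adjusted p = 1.01e-12) and the log2 fold change with CCCP -1.14 (adjusted p = 1.73e-11). It held 38.1, 34.9 and 36.0 CPM with acetate, 41.8, 48.1 and 44.6 CPM with mtDNA and 36.7, 42.9 and 35.6 CPM with both. None of these differed from Sen (IR) + CCCP past the threshold (adjusted p = 0.084, 0.288 and 0.36). The combination against mtDNA alone gave -0.23 ± 0.08 (adjusted p = 0.0245), lower in libraries that overlapped, and this call was lost without any 1 of 4 of the 6 libraries. Exons of a non-coding gene on the same strand overlap exons of MICA, and reads there could not be assigned to a single gene. A Y RNA on the opposite strand overlaps them as well.

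MICB, the paralog of MICA (ENSG00000204516, chr6:31494881-31511124, plus strand), varied least of the 10 ligands, with a highest group mean 1.30 times the lowest. It held 28.9, 30.7 and 28.3 CPM in Prol, 34.5, 35.8 and 30.8 CPM in Sen (IR) and 26.1, 28.2 and 25.5 CPM in Sen (IR) + CCCP. The rise with irradiation, 0.20 ± 0.07 (adjusted p = 0.0186), was lost without replicate 1 or 3 of Prol or replicate 1 or 2 of Sen (IR). With mtDNA its libraries held 37.8, 33.1 and 32.7 CPM, all above those of Sen (IR) + CCCP, a rise of 0.37 ± 0.07 (adjusted p = 0.000624). With acetate they held 29.7, 27.0 and 28.8 CPM, which overlapped Sen (IR) + CCCP (log2 0.09 ± 0.07, adjusted p = 0.27), and with both 30.5, 34.5 and 32.8 CPM (log2 0.29 ± 0.07, adjusted p = 0.00134). The 6 groups in order of their means overlapped at each step. Exons of MICB-DT, a non-coding gene on the opposite strand, overlap exons of MICB, and whether counting used strand is not given.

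ULBP1 (ENSG00000111981, chr6:149963943-149973715, plus strand) was, under TMM, the only ligand that rose with irradiation and again with CCCP. On the scale that follows TPM, ULBP3 also did, by 0.67 (adjusted p = 0.000102) and 0.42 (adjusted p = 0.00332). The ULBP1 libraries held 15.3, 16.4 and 16.0 CPM in Prol, 31.2, 32.0 and 27.8 CPM in Sen (IR) and 46.1, 44.9 and 44.0 CPM in Sen (IR) + CCCP. The 3 groups did not overlap. It rose by 0.93 ± 0.07 (adjusted p = 1.27e-10) with irradiation and by 0.57 ± 0.06 (adjusted p = 4.76e-08) with CCCP, so that Sen (IR) + CCCP was 2.84-fold above Prol (adjusted p = 1.11e-14). Acetate lowered it to 36.7, 38.6 and 34.5 CPM (log2 -0.30 ± 0.06, adjusted p = 0.000252), and mtDNA raised it to 55.2, 52.2 and 58.7 CPM (log2 0.30 ± 0.06, adjusted p = 0.00128). With both it held 41.8, 37.4 and 40.8 CPM, below mtDNA alone with a log2 fold change of -0.47 ± 0.06 (adjusted p = 1.07e-06). The difference of the combination from Sen (IR) + CCCP was -0.17 ± 0.06 (adjusted p = 0.0217) and was lost without any 1 of 5 of the 6 libraries.

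ULBP2 (ENSG00000131015, chr6:149942014-149949235, plus strand) had the largest rise with irradiation of the 10. It held 10.2, 8.96 and 10.6 CPM in Prol, 32.0, 32.2 and 26.7 CPM in Sen (IR) and 18.6, 20.3 and 20.5 CPM in Sen (IR) + CCCP. Sen (IR) lay above the other 5 groups and Prol below them. The rise was 3.04-fold (log2 1.60 ± 0.08, adjusted p = 3.75e-13) and the fall with CCCP 1.53-fold (log2 -0.61 ± 0.08, adjusted p = 2.77e-07). With acetate, mtDNA and both the libraries spanned 16.7 to 19.3 CPM, and acetate and mtDNA alone gave no call (adjusted p = 0.0674 and 0.493). With both it was lower, at -0.19 ± 0.08 (adjusted p = 0.0438), a call lost without any 1 of 5 of the 6 libraries. ULBP2 has close paralogs, RAET1G and RAET1L, so reads could be split between them and its level is less certain.

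ULBP3 (ENSG00000131019, chr6:150061053-150069121, minus strand) was the ligand that fell furthest with acetate. Its libraries held 3.72, 3.78 and 3.85 CPM in Prol, 5.73, 6.10 and 5.27 CPM in Sen (IR) and 5.91, 5.58 and 5.48 CPM in Sen (IR) + CCCP. The rise with irradiation was 0.59 ± 0.12 (adjusted p = 0.000338), and the 2 senescent groups overlapped (log2 -0.01 ± 0.12, adjusted p = 0.954). With acetate the libraries held 2.07, 2.58 and 2.69 CPM, with mtDNA 5.02, 6.39 and 5.68 CPM, and with both 2.07, 1.93 and 2.59 CPM. Both groups given acetate lay below every library of the other 4 groups, Prol included. ULBP3 fell 2.28-fold with acetate (log2 -1.19 ± 0.13, adjusted p = 4e-08) and, in the presence of mtDNA, 2.59-fold (log2 -1.37 ± 0.14, adjusted p = 1.54e-08). The change with mtDNA alone was 0.01 ± 0.12 (adjusted p = 0.972), with a 95% interval of -0.24 to 0.26. It had the lowest counts of the 10, from 47 to 244 per library.

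Summed in TPM, the 5 NKG2D ligands stood at 152 ± 4.34 in Prol, 339 ± 28.9 in Sen (IR), 329 ± 6.33 in Sen (IR) + CCCP, 263 ± 3.45 with acetate, 348 ± 3.01 with mtDNA and 272 ± 3.88 with both. The libraries of the 2 groups given acetate lay between Prol and the 3 other senescent groups, and Sen (IR) overlapped Sen (IR) + CCCP and Sen (IR) + CCCP + mtDNA. The make-up of the sum differed. MICA supplied 41.4% of it in Sen (IR) and 27.9% in Sen (IR) + CCCP, while ULBP1 supplied 11.3% and 23.4%. ULBP3 supplied 9.34% in Sen (IR) + CCCP and 4.71% with acetate. The TPM scale raises the CCCP groups over the CPM scale, as described with the scaling of the libraries.

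PVR (ENSG00000073008, chr19:44643798-44666162, plus strand), the shared ligand of CD226 and TIGIT, rose with irradiation and fell further with CCCP than any other of the 10. Its libraries held 154, 155 and 143 CPM in Prol, 382, 396 and 311 CPM in Sen (IR) and 129, 129 and 123 CPM in Sen (IR) + CCCP. Sen (IR) lay above all other groups, replicate 3 again being its lowest library. The rise was 2.41-fold (log2 1.27 ± 0.07, adjusted p = 3.43e-12) and the fall 2.86-fold (log2 -1.51 ± 0.07, adjusted p = 1e-13). Without replicate 3 of Sen (IR) the log2 fold changes were 1.37 (adjusted p = 7.62e-14) and -1.61 (adjusted p = 3.16e-15). It held 107, 102 and 98.4 CPM with acetate (log2 -0.31 ± 0.07, adjusted p = 0.0011), 149, 153 and 151 CPM with mtDNA (log2 0.25 ± 0.07, adjusted p = 0.0207) and 115, 138 and 117 CPM with both (log2 -0.04 ± 0.07, adjusted p = 0.634). mtDNA on top of acetate raised it by 0.27 ± 0.07 (adjusted p = 0.0204), and this call was lost without replicate 2 of the combination (log2 0.18, adjusted p = 0.106), replicate 2 of the acetate group (log2 0.27, adjusted p = 0.0622) or replicate 3 of it (log2 0.24, adjusted p = 0.0915). Without replicate 3 of Sen (IR) + CCCP the rise with mtDNA was 0.24 (adjusted p = 0.0658). Exons of CEACAM19 and of another annotated gene on the same strand overlap exons of PVR, and reads there could not be assigned to 1 gene.

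**Figure D2:**
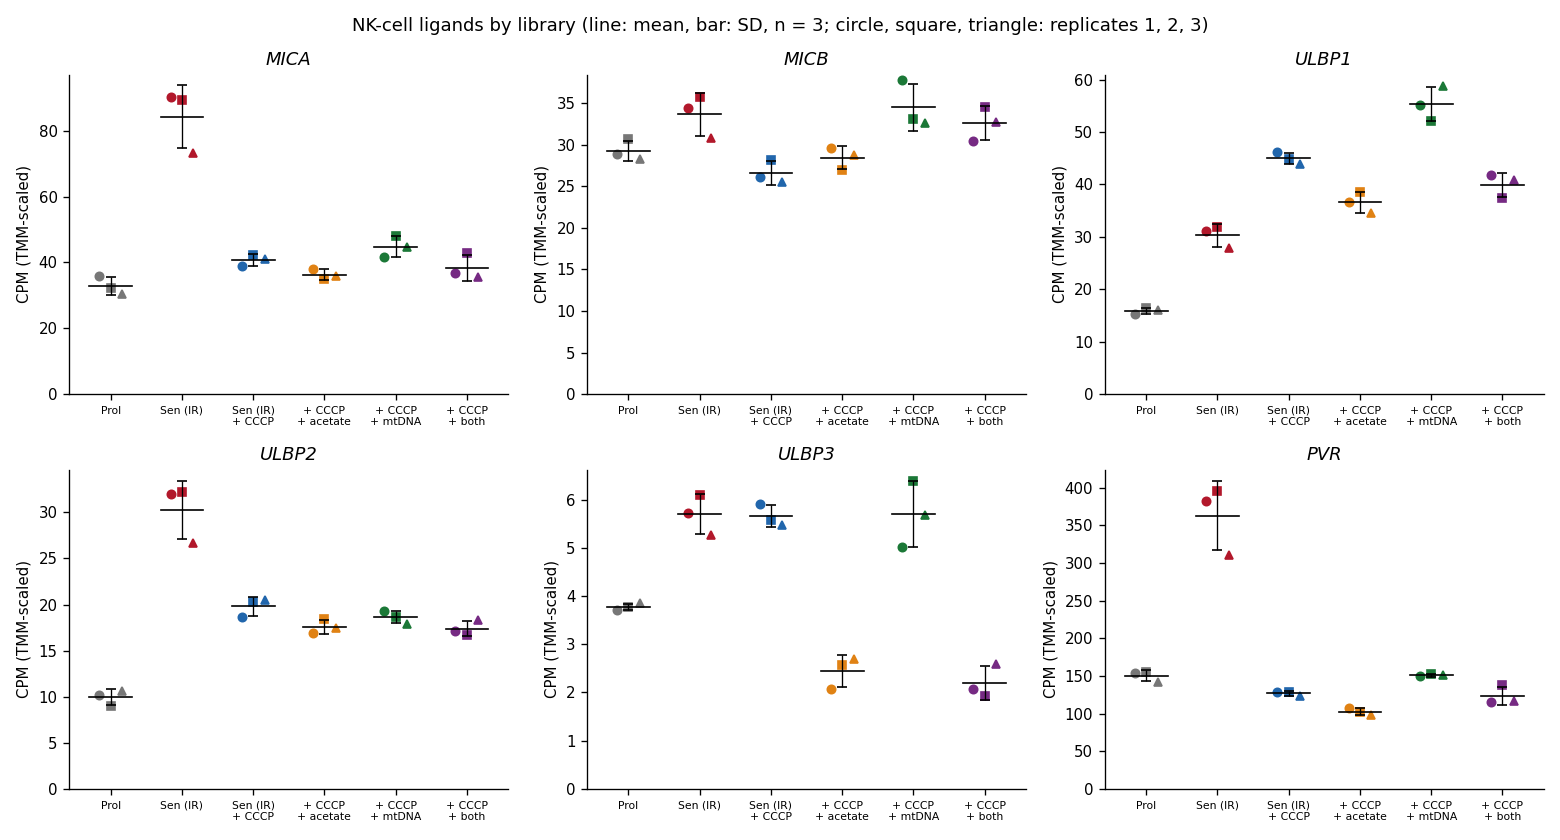
The 5 NKG2D ligands and PVR in CPM (TMM-scaled, vertical axes from 0) in the 6 groups, 1 symbol per library, with the mean as a line and the SD as a bar (n = 3). MICA, ULBP2 and PVR peak in Sen (IR), ULBP1 peaks with mtDNA after CCCP, and ULBP3 is lowest in the 2 groups given acetate.

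The comparison of Sen (IR) with Prol asks which ligands accompany irradiation-induced senescence. Of the 10 ligands, 9 were called, against 56.7% of all genes tested. The 7 that were higher (MICA, MICB, ULBP1, ULBP2, ULBP3, PVR and CD276) compare with 26.7% of all genes, and the 2 that were lower (CD274 and PDCD1LG2) with 29.9%. All 5 NKG2D ligands were higher, and both PD-1 ligands were lower. The median log2 fold change of the 10 was 0.46, against -0.01 over all genes. Of the 9 fibroblast markers 7 were lower, and their sum went from 15766 to 17800.1 TPM in Prol to 10050.1 to 12075 TPM in Sen (IR). Their part in the result was not tested.

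The comparison of Sen (IR) + CCCP with Sen (IR) asks what CCCP, with the removal of mitochondria, does in irradiated cells. It called 8 of the 10 ligands, against 65.2% of all genes, so the number called is near the background. The direction was uneven, with 7 ligands lower (against 31.3% of all genes), of which PDCD1LG2 and MICB lay above 0 on the scale that follows TPM, and ULBP1 alone higher (against 34%). On that scale CD274 and ULBP3 were called higher as well, which gave 3 higher and 5 lower. With total counts, PDCD1LG2 (log2 -0.06, adjusted p = 0.295) and MICB (log2 -0.08, adjusted p = 0.296) were not called. CD274 was called higher there (log2 0.46, adjusted p = 0.0195), which gave 2 higher and 5 lower. Under TMM the median of the 10 was -0.48, against 0.03 over all genes. The fibroblast markers moved with this comparison, since all 9 were lower and their sum went from 10050.1 to 12075 TPM in Sen (IR) to 5531 to 5721 TPM in Sen (IR) + CCCP. Their part in the result was not tested. Against Prol, 9 of 10 ligands were called in Sen (IR) + CCCP (against 69.2% of all genes), with MICA, ULBP1, ULBP2 and ULBP3 higher (against 35.1% of all genes) and CD274, PDCD1LG2, CD47, PVR and CD276 lower (against 34.1%). On the scale that follows TPM, 6 were called higher, PVR and MICB among them, and 3 lower, with CD276 not called.

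Acetate, mtDNA and their combination were each compared with the same 3 Sen (IR) + CCCP libraries, to ask what each does to cells whose mitochondria had been removed, so the 3 sets of changes share their control. Acetate called 5 of 10 ligands, against 57.1% of all genes, which is near the background. CD274 was higher (against 28.8% of all genes) and PDCD1LG2, ULBP1, ULBP3 and PVR were lower (against 28.3%). CD47, MICA and ULBP2 were also called lower under both other scalings, on the one that follows TPM with -0.19 (adjusted p = 0.0094), -0.27 (adjusted p = 0.00496) and -0.27 (adjusted p = 0.00428), and with only the groups compared. The fibroblast markers were called higher for 3 and lower for 5 of 9 with acetate, their sum going to 4001 to 4121 TPM, and the 2 leukocyte markers that passed the filter were higher, the sum of the 9 leukocyte markers going from 2.15 to 2.37 TPM to 5.36 to 5.64 TPM. Their part in the result was not tested. mtDNA called 6 of 10, all higher, against 18.1% of all genes in either direction and 10.7% higher, with 7.4% lower. These were CD274, PDCD1LG2, MICB, ULBP1, PVR and CD276, and apart from CD274 their log2 fold changes were between 0.18 and 0.37. The combination called 6 of 10, against 61.7% of all genes, with CD274, MICB and CD276 higher (against 30.3%) and ULBP1, ULBP2 and ULBP3 lower (against 31.4%). On the scale that follows TPM it called 1 higher and 6 lower, and with total counts 1 higher and 7 lower, with PDCD1LG2, MICA and PVR called lower under both. Set against acetate alone, the combination called 3 of 10, all higher (CD274, PDCD1LG2 and PVR), against 12.6% of all genes in either direction, 6.57% higher and 6% lower. Set against mtDNA alone it called 6 of 10, against 57.4%, with CD274 higher (against 27.4%) and PDCD1LG2, MICA, ULBP1, ULBP3 and PVR lower (against 29.9%). The interaction called 0 of 10 ligands in edgeR's quasi-likelihood test, against 0.659% of all genes (0.0765% higher and 0.583% lower). At an unadjusted p under 0.05 it was also 0 of 10, and DESeq2's Wald test called 0.

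**Figure D3:**
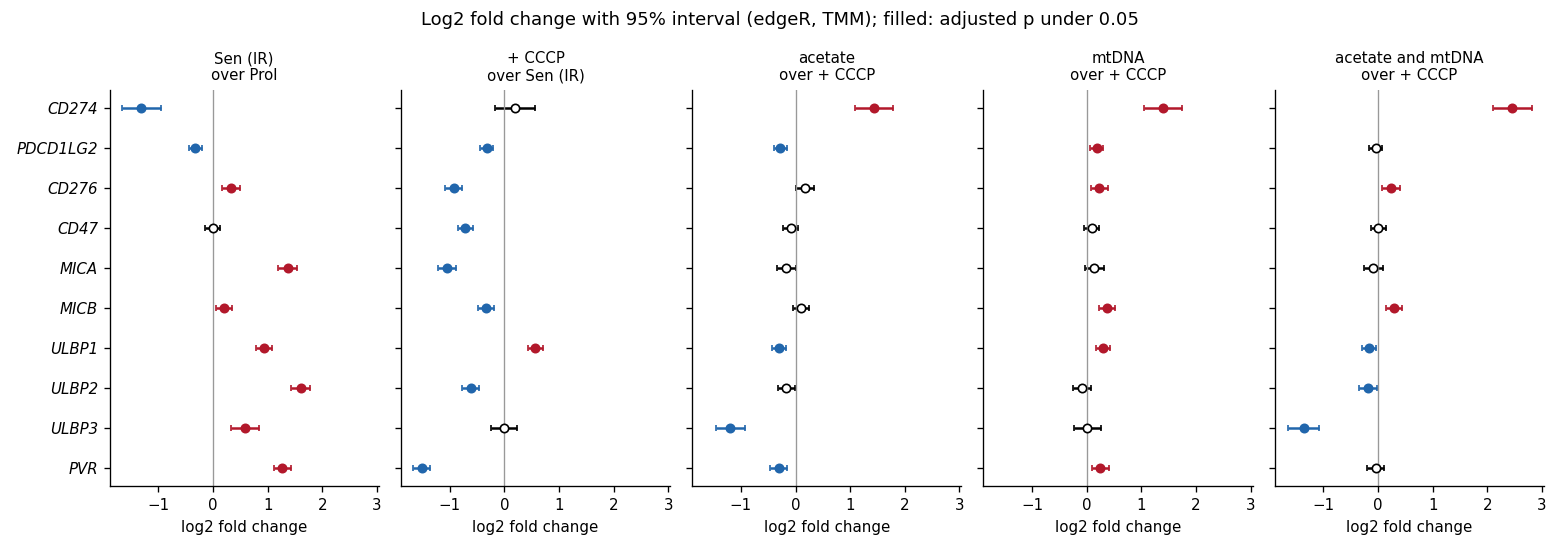
Log2 fold change of each ligand (horizontal axis, shared scale) with its 95% interval from edgeR in 5 comparisons, 3 libraries against 3. Filled points passed an adjusted p of 0.05, red for higher and blue for lower. CD274 moves from -1.31 with irradiation to 2.46 with acetate and mtDNA, while ULBP3 falls with acetate and with both.

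The direction of some changes with CCCP depended on how the libraries were scaled. TMM scaling sets the bulk of genes level between groups. Library sizes that follow the deposited TPM, an alternative chosen after the data were seen, raised the median of all genes by 0.43 in Sen (IR) + CCCP against Sen (IR) and by 0.51 against Prol, and total counts without TMM factors raised it by 0.26 and 0.35. The changes given here are relative to the median gene. On the scale that follows TPM, PVR (log2 -1.09, adjusted p = 2.65e-12), MICA (log2 -0.62, adjusted p = 1.26e-07), CD276 (log2 -0.50, adjusted p = 3.73e-06), CD47 (log2 -0.29, adjusted p = 0.000143) and ULBP2 (log2 -0.19, adjusted p = 0.0283) remained lower in Sen (IR) + CCCP than in Sen (IR), and ULBP1 remained higher (log2 1.00, adjusted p = 4.87e-12). On that scale PDCD1LG2 and MICB turned to 0.11 (adjusted p = 0.0983) and 0.09 (adjusted p = 0.241), while CD274 (log2 0.62, adjusted p = 0.00177) and ULBP3 (log2 0.42, adjusted p = 0.00332) were called higher. Against Prol, MICB (log2 0.37, adjusted p = 4.47e-05) and PVR (log2 0.26, adjusted p = 0.00159) were called higher, of which PVR had been called lower under TMM and MICB had not been called. CD276 lost its call against Prol (log2 -0.09, adjusted p = 0.285). In the comparisons of acetate, mtDNA and both with Sen (IR) + CCCP, no ligand called under TMM changed direction under these scalings, but the mtDNA calls of PDCD1LG2 and CD276 were lost under both, that of PVR on the scale that follows TPM, and the calls of MICB and CD276 with both treatments under both.

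**Figure D4:**
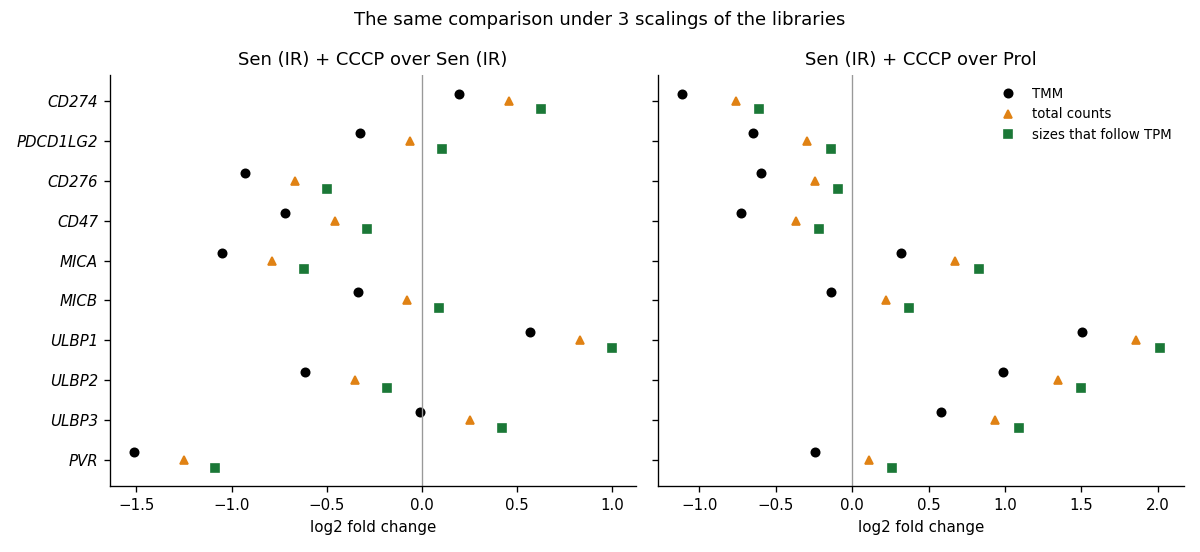
Log2 fold change of each ligand in Sen (IR) + CCCP over Sen (IR) (left) and over Prol (right) under 3 scalings of the libraries, TMM (circles), total counts (triangles) and sizes that follow TPM (squares). Every ligand shifts to the right by about the same amount, so that MICB, PDCD1LG2 and ULBP3 cross 0 on the left and MICB and PVR on the right.

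Regulators known to act on these genes changed in some of the same comparisons. The 20 genes listed hold interferon, NF-κB, DNA damage, heat shock and stress regulators. IRF1, the interferon regulatory factor known to act on the CD274 promoter, rose with acetate by 1.00 ± 0.11 (adjusted p = 4.53e-08), with mtDNA by 0.83 ± 0.11 (adjusted p = 5.97e-06) and with both by 1.36 ± 0.11 (adjusted p = 3.06e-10), the latter 1.21 (adjusted p = 4.62e-12) without replicate 2 of the combination. In the combination IRF1 held 113, 152 and 108 CPM, and replicate 2, the library with the highest CD274, was the highest of the 18. CD274 was lower in Sen (IR) than in Prol. IRF1 held 52.9, 53.6 and 49.2 CPM in Prol and 72.4, 74.0 and 59.2 CPM in Sen (IR), all of the latter higher. The part of IRF1 and of the other regulators in the changes of the ligands was not tested. Of the 20 regulators, 8 were called with mtDNA, all higher (against 18.1% of all genes called and 10.7% called higher), 4 higher and 6 lower with acetate (against 57.1%), and 9 higher and 7 lower with both (against 61.7%). Besides IRF1, mtDNA raised IRF9 (log2 1.54 ± 0.18, adjusted p = 1.92e-06), STAT2 (log2 1.51 ± 0.16, adjusted p = 5.87e-07) and the kinase JAK2 (log2 0.51 ± 0.08, adjusted p = 9.88e-05).

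**Figure D5:**
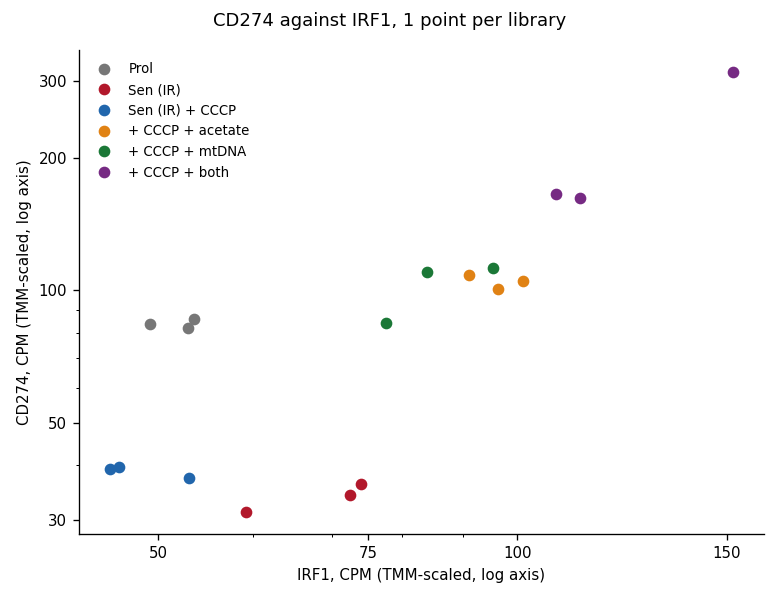
CD274 (vertical log axis, CPM) against IRF1 (horizontal log axis, CPM), 1 point per library and 1 colour per group (n = 3). The Sen (IR) libraries have low CD274 at intermediate IRF1, and replicate 2 of the combination is highest on both axes.

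Of the stress regulators, ATF4 is known to drive ULBP1 transcription. It held 252 ± 8.42 CPM in Prol, 166 ± 9.81 CPM in Sen (IR) and 609.8 ± 13.1 CPM in Sen (IR) + CCCP. All Sen (IR) libraries of ATF4 (155 to 173 CPM) lay below those of Prol (244 to 261 CPM), while ULBP1 was higher in Sen (IR). ATF4 then rose with CCCP by 1.88 ± 0.06 (adjusted p = 2.47e-16), where ULBP1 was the only ligand called higher under TMM. The changes of ATF4 with acetate (log2 -0.01 ± 0.06, adjusted p = 0.868) and with mtDNA (log2 -0.04 ± 0.06, adjusted p = 0.723), where ULBP1 fell and rose, did not pass. HSF1, the heat shock factor, rose with CCCP by 0.95 ± 0.06 (adjusted p = 1.92e-11), where MICA and, under TMM but neither other scaling, MICB were called lower. Its targets HSPA1A and HSPA1B, near-identical genes whose counts are uncertain for that reason, gave log2 fold changes with mtDNA of 0.26 ± 0.11 (adjusted p = 0.108) and 0.33 ± 0.08 (adjusted p = 0.00858). Of the DNA damage regulators, CHEK2 rose with irradiation by 0.93 ± 0.10 (adjusted p = 5.82e-08) and ATM fell by 0.84 on the log2 scale (adjusted p = 1.01e-08). With acetate, where ULBP3 fell, CHEK1 (log2 -1.51 ± 0.06, adjusted p = 1.37e-14), CHEK2 (log2 -1.27 ± 0.10, adjusted p = 1.83e-10) and E2F1 (log2 -1.58 ± 0.14, adjusted p = 4.26e-09) fell as well. With CCCP, 9 of the 20 regulators rose and 8 fell (against 65.2% of all genes called), IRF9 (log2 -1.38 ± 0.18, adjusted p = 7.63e-07) among the latter. On the scale that follows TPM these counts were 13 and 4. Whether ATF4, HSF1, the DNA damage regulators or E2F1 acted on any of the ligands was not tested.

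Other ligands of T cells and macrophages were examined as a list of 16 genes, of which 10 passed the filter. Irradiation called 5 higher and 2 lower, against 56.7% of all genes (26.7% higher and 29.9% lower). VSIR, which encodes the inhibitory ligand VISTA, fell with irradiation (log2 -0.89 ± 0.11, adjusted p = 8.29e-07) and with CCCP (log2 -2.42 ± 0.14, adjusted p = 1.49e-12), and rose with acetate (log2 2.25 ± 0.14, adjusted p = 7.92e-12) and with both (log2 2.44 ± 0.14, adjusted p = 2.11e-12). CCCP called 1 higher and 6 lower, against 65.2% (34% higher and 31.3% lower). Among the 6 were NECTIN2, a further ligand of CD226 (log2 -1.27 ± 0.10, adjusted p = 3e-10), and HLA-E, the ligand of the inhibitory NK receptor NKG2A (log2 -1.04 ± 0.08, adjusted p = 2.08e-10). Acetate called 2 higher and 4 lower, against 57.1%. mtDNA called 4, all higher, against 18.1% (10.7% higher), led by LGALS9, the galectin-9 gene (log2 2.14 ± 0.48, adjusted p = 0.00293). LGALS9 was near the floor, at 0.395 ± 0.168 CPM in Sen (IR) + CCCP, with a lowest count of 8, and 1.71 ± 0.459 CPM with mtDNA.

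Of 14 further NK-cell ligands and adhesion partners, 11 passed the filter, and ICAM1, the adhesion partner of LFA-1 that NK cells use to bind their targets, changed most. It held 272 ± 9.34 CPM in Prol, 444 ± 49.1 CPM in Sen (IR) and 8.33 ± 0.663 CPM in Sen (IR) + CCCP, a 53.5-fold fall with CCCP (log2 -5.74 ± 0.16, adjusted p = 1.65e-17). It rose 20.6-fold with acetate (log2 4.37 ± 0.15, adjusted p = 1.13e-15), 3.45-fold with mtDNA (log2 1.79 ± 0.15, adjusted p = 2.38e-08) and 32.9-fold with both (log2 5.04 ± 0.16, adjusted p = 1.9e-16). Its interaction was -1.11 ± 0.20 (adjusted p = 0.00735), the only call of the interaction among all the lists. NCR3LG1, the ligand of the NK receptor NKp30, rose with CCCP (log2 1.22 ± 0.15, adjusted p = 2.29e-07) and fell with acetate (log2 -1.30 ± 0.15, adjusted p = 1e-07). CLEC2B, the ligand of NKp80, fell with acetate (log2 -2.31 ± 0.13, adjusted p = 2.24e-12). In all, acetate called 3 of the 11 higher and 7 lower, against 57.1% of all genes (28.8% higher and 28.3% lower). CCCP called 3 higher and 2 lower, a smaller share than the 65.2% of all genes, and 8 and 2 on the scale that follows TPM. mtDNA called 2, both higher, against 18.1% (10.7% higher).

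The genes that process or shed the ligands numbered 12, of which 10 passed. QPCT and QPCTL, which encode glutaminyl cyclases, the latter being the enzyme that completes the SIRPA-binding end of CD47, rose with irradiation by 1.39 ± 0.09 (adjusted p = 3.02e-11) and 1.06 ± 0.14 (adjusted p = 1.27e-06) and fell with CCCP by 1.80 and 1.61 on the log2 scale (adjusted p = 2.62e-13 and 2.16e-09). CD47 itself was called in only the second of these comparisons. Irradiation called 6 of the 10 higher and 2 lower, against 56.7% of all genes (26.7% higher and 29.9% lower). CCCP called 7 lower (against 31.3% of all genes) and 0 higher (against 34%). The number called was near the 65.2% of all genes in either direction. On the scale that follows TPM, CCCP called 5 lower and 3 higher. Acetate called 5 higher and 1 lower, against 57.1% (28.8% higher and 28.3% lower), and mtDNA 2 higher, against 18.1% (10.7% higher). Of 11 receptors of the ligands, 10 stayed under 1 TPM in every library and PDCD1 was at 0 in all 18. SIRPA, the CD47 receptor, was present, and rose with irradiation by 0.82 ± 0.07 (adjusted p = 1.03e-09).

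Likeness to each ligand was measured as the Pearson correlation of log2 CPM over the 18 libraries. The libraries fall into 6 groups and share their treatments, so these values describe shared patterns over the groups and carry no test. The closest to CD274 were WARS (r = 0.97), SIAH2 (r = 0.96) and TJP1 (r = 0.96). WARS is an interferon-inducible tRNA synthetase. The closest to PDCD1LG2 were PLS3 (r = 0.98), MFAP4 (r = 0.97) and MYCT1 (r = 0.97), and to CD47 FBLN5 (r = 0.99), SDC3 (r = 0.99) and SSR4 (r = 0.99). For CD276 they were GRN (r = 0.98), FAM234A (r = 0.97) and TFG (r = 0.97), and for PVR TOR1A (r = 0.98), POFUT1 (r = 0.98) and ACSL4 (r = 0.98). For MICA they were RMDN3 (r = 0.98), TOR1B (r = 0.97) and RETSAT (r = 0.97). MICB had the lowest values, with CXCL11 (r = 0.88), CXCL10 (r = 0.88) and C1GALT1 (r = 0.88). CXCL10 and CXCL11 are interferon-inducible chemokines. For ULBP1 they were KDSR (r = 0.99), HK2 (r = 0.99) and ZNF319 (r = 0.99), for ULBP2 TNFRSF11B (r = 0.97), BRF2 (r = 0.96) and EMC3 (r = 0.96) and for ULBP3 GNL3 (r = 0.98), GBE1 (r = 0.97) and RGCC (r = 0.97). No ligand was among the 3 closest genes of another.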

How the data were processed

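Polyadenylated RNA of 18 IMR90 libraries had been sequenced in pairs. Per the labels and the methods, the authors used Trimmomatic 0.36 for trimming and STAR 2.5.2b for alignment to GRCh38, and deposited counts of uniquely mapped reads per gene from featureCounts (Subread 1.5.2). The authors also deposited TPM, which were used here only to compare genes per length and for 1 alternative scaling. Whether counting used strand is not given in the sources used here. Uniquely mapped reads understate genes with near-identical copies.

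Counts were fitted in edgeR 4.0.16 (R 4.3.3) with TMM scaling, filterByExpr by group and 6 group means over all 18 libraries, followed by the two-sided quasi-likelihood test and Benjamini-Hochberg adjustment over 16994 of 57500 genes (threshold 0.05). The common biological coefficient of variation was 0.0644. The labels do not say whether replicates were separate cultures, while the study counts its replicates as independent experiments, so p-values measure the spread between these samples. With 3 libraries against 3, an exact permutation test of 1 gene cannot go below 0.1 and was not used. Alternatives were DESeq2 1.42.0 (size factors, and the Wald test), the study's rule of an unadjusted p under 0.05 with an absolute log2 fold change over 0.5, other filters on low counts, no mtDNA-encoded genes, a fit to the compared groups alone, a replicate block, each library left out, and 2 other scalings. The study's methods give that rule for Sen (IR) with and without CTPI2, an inhibitor of the citrate carrier SLC25A1. That treatment is not among these 6 groups.

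The ligands and the lists of related genes were chosen with earlier results of these data known, and 1 listed regulator is not reported here. Of each list, up to 6 genes with the largest called changes in a comparison could be named, plus genes that a statement on a ligand turns on, and for each ligand the 3 genes closest by correlation. Promoters were RefSeq sequences, aligned with Biopython 1.88.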

Additional observations from a re-analysis of the deposited data

How the results depend on the processing

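Over 1500 values of the 10 ligands under the alternatives, 1377 kept their side of the threshold and, where called, their direction. Of the others, 80 lost a call, 35 gained one and 8 changed direction with a call before or after the change. A change of sign between values that were both uncalled was not counted. All 8 of these counted changes came from 2 scalings chosen after the data were seen. Uncalled values near 0 changed sign under other alternatives too. For example, CD47 in Sen (IR) over Prol ran from -0.07 to 0.07 on the log2 scale with each library left out. With sizes that follow TPM, Sen (IR) + CCCP over Sen (IR) gave PDCD1LG2 0.11, MICB 0.091 and ULBP3 0.42 on the log2 scale, and over Prol MICB 0.37 and PVR 0.26. With total counts, MICB over Prol was 0.22, PVR 0.11, and CD47 with both treatments over Sen (IR) + CCCP -0.17. The cause was not tested.

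The number of ligands called with acetate (5) was 8 under either of these scalings, 9 with only the groups compared and 2 by the study's rule. With mtDNA (6) it was 3 on the scale that follows TPM, 1 by the study's rule and 3 to 5 with each library left out, the lowest without replicate 3 of Sen (IR) + CCCP. With both over Sen (IR) + CCCP (6) it was 2 by the study's rule, with both over acetate (3) 1 by that rule and 1 to 4 with each library left out, the lowest without replicate 2 of the combination, and with both over mtDNA (6) 2 by that rule. The interaction (0) called 1 ligand, CD274, with no filter on low counts (adjusted p = 0.00383), and 0 to 1 with each library left out, the 1 being CD274 without replicate 2 of the combination. The study's rule requires a minimum fold change beside an unadjusted p, so small changes fall out of it by construction.

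Same-numbered replicates did not deviate together (correlations of -0.08 to 0.09, and in no pair of groups did all 3 libraries correlate best with their own number), so no pairing by number was seen. Weak correlations cannot exclude that same-numbered libraries came from the same experiment. Of 90 values, the replicate block left 88 on their side of the threshold, ended the call of ULBP2 with both over Sen (IR) + CCCP (-0.19, adjusted p = 0.0543) and added CD276 with acetate (0.17, adjusted p = 0.0458).

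Over all genes, the study's rule called 5709 against 9628 for Sen (IR) over Prol, 7380 against 11088 with CCCP, 5522 against 9709 with acetate, 1758 against 3071 with mtDNA, 6460 against 10487 with both, 1290 against 2136 with both over acetate and 5760 against 9748 with both over mtDNA. With both over acetate the count was 1241 without replicate 2 and 1296 without replicate 3 of the acetate group. The interaction called 112, against 284 with DESeq2's Wald test, 413 with no filter, 622 by the study's rule and 403 without replicate 2 of the combination. The share of called genes that were higher moved from 52.1% to 78.8% (sizes that follow TPM) and 70.6% (total counts) with CCCP, from 50.5% to 39.5% and 37.1% with acetate, from 59.1% to 34.1% and 35.7% with mtDNA, from 49.1% to 36.2% and 32.3% with both, from 50.8% to 78.8% and 72.2% for Sen (IR) + CCCP over Prol, and from 52.2% to 38.0% and 29.1% with both over acetate. With total counts it moved from 47.1% to 58.2% for Sen (IR) over Prol and from 47.8% to 36.2% with both over mtDNA. RNA at 3 libraries a group limits these data, and ULBP3, with 47 to 244 counts, has the widest counting error.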
